A study of Mus musculus with 4 samples.

Results

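The loci described here lie on mouse chromosome 3 within 5 Mb (megabases) of either side of the hemojuvelin gene (Hjv, named Hfe2 in the annotation used), from base 91525172 to base 101529210 of GRCm38. A locus is a stretch of the genome in which Cufflinks assembled transcripts from 1 library, and loci of 300 bases or longer were taken. There were 831 such loci, of 112041 in the 4 libraries together, and 4776 lay on the rest of chromosome 3. Wild type libraries 1 and 2 had 224 and 158 of the loci and knockout libraries 1 and 2 had 218 and 231. Loci under 300 bases inside the interval were left out, 80 and 14 (wild type) against 191 and 16 (knockout), and no locus crossed either edge of it.

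Whole liver RNA of male C57BL/6 mice was sequenced in 2 wild type libraries and 2 knockout libraries, the latter from mice of that background with both copies of Hjv disrupted. Both genotypes ate the iron-poor AIN-93G diet (2.5 mg iron per kg food) for 50 days starting at 5 weeks of age, and liver was taken at 12 weeks. Whether the libraries are of separate animals is not given in the labels, so errors and p-values measure the spread between these libraries, which may be technical. Both knockout libraries carry the targeted chromosome on both copies, so loss of Hjv and any other difference of the chromosome around it cannot be told apart in this design.

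Hemojuvelin is a hepatocyte surface protein that helps bone morphogenetic proteins to signal, and that signal keeps the iron hormone hepcidin expressed. The genes around it have varied roles. The left side holds S100 calcium-binding proteins, keratinocyte genes of the epidermal differentiation complex and many genes of RNA and protein handling, and the right side holds the Hsd3b family of steroid dehydrogenases and several enzymes of liver metabolism. In mouse liver Hsd3b5 is known as a gene expressed mainly in males.

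The interval holds 2 pairs of neighboring copies on which several results below turn, and their upstream sequences are printed here. Selenbp1 and Selenbp2 encode selenium-binding proteins that share 52.3% and 52.0% of the 50-base words of their transcripts. The sequences before their first exons are from RefSeq on GRCm38.p6, chr3:94932833-94933055 for Selenbp1 and chr3:94693323-94693555 for Selenbp2, both on the plus strand. Capitals mark TTTATA, which reads TATAAA on the other strand.
Selenbp1: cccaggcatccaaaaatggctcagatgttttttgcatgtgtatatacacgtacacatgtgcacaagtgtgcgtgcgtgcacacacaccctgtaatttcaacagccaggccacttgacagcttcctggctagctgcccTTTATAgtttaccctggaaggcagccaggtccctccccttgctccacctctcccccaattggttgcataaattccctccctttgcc
Selenbp2: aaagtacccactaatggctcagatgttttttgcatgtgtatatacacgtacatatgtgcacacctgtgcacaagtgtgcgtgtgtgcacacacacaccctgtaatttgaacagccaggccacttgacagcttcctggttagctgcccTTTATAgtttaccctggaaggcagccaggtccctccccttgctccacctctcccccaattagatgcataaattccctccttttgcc
The pair was identical at 209 of 221 aligned bases, or 94.6%, with 14 further bases set against gaps. Each sequence held the TATAAA letters in 1 place. Searched on both strands, TATAAA was found in 12.4% of 32851 RefSeq promoters of 250 bases. The Selenbp1 and Selenbp2 sequences printed are shorter, at 223 and 233 bases.

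Hsd3b2 and Hsd3b3 encode 3-beta-hydroxysteroid dehydrogenases, which convert hydroxysteroids to ketosteroids. Their upstream sequences are chr3:98724544-98724793 and chr3:98763129-98763378, both on the minus strand of GRCm38.p6 and from RefSeq, and neither contained TATAAA, so no letters are in capitals.
Hsd3b2: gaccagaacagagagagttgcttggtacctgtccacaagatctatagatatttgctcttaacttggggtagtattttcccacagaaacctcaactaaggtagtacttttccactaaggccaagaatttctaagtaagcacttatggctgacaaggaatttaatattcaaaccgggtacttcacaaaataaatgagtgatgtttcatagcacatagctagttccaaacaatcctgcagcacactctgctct
Hsd3b3: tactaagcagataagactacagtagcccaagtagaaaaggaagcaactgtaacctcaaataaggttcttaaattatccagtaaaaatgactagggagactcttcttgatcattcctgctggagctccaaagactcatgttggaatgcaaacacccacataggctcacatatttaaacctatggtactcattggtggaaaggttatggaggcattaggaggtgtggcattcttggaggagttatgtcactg
This pair was identical at 152 of 204 aligned bases, or 74.5%, with 92 further bases set against gaps. No unrelated pair was aligned, so the 74.5% does not show how alike these sequences are. Of the transcripts, 11.1% of the 50-base words of Hsd3b2 occur in Hsd3b3 and 27.2% of those of Hsd3b3 occur in Hsd3b2. Reads from the shared words of either pair could have been placed on the other gene.

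Most loci of the interval fell on protein-coding genes, 71.0% and 84.8% of them for wild type and 78.9% and 61.5% for knockout. The interval held 14.8% and 13.4% of the chromosome's loci for wild type against 14.4% and 16.5% for knockout. Wild type averaged 14.1% ± 0.964 and knockout 15.5% ± 1.43 (SD, n = 2 each), with overlapping groups (two-sided exact permutation test, p = 0.667, where the smallest p this design allows is 0.3333). By comparison, 205 of the 988 coding genes used on the chromosome, or 20.7%, lie in the interval. Of the 207 coding genes annotated there, 2 were predicted models left out, 100 had no locus that could be used and 105 had a value in at least 1 library. Values in all 4 libraries over enough of the transcript left 59 genes for testing.

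The libraries differed in how finely they were assembled, which touches each value below. Median locus length in the interval was 2064 and 4282 bases in the wild type libraries, 1914 in knockout 1 and 2627 in knockout 2. Knockout 2 reached the lowest levels, with 288 loci under 0.5 FPKM (sequenced fragments for a given length of transcript and size of library) outside coding exons of chromosome 3, against 43 and 11 in the wild type libraries and 0 in knockout 1. The files give no read counts, so no counting interval was computed. A gene with no locus is not a gene at 0, since the hepatocyte genes Alb and Serpina1a had no usable locus in any library. The hepatocyte markers Apoa1, Cps1, Pck1, Tat and Ttr had values in each of the 4 libraries.

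The targeted gene itself (chromosome 3, 96525172 to 96529210) was assembled at 8.62 and 27.1 deposited FPKM in the wild type libraries, over 45.1% and 81.6% of its transcript. No locus lay on it in knockout 1. Knockout 2 had a locus at 0.226 FPKM over 14.3% of the transcript, with confidence bounds of 0.155 and 0.296 FPKM. A further knockout 2 locus held 233 exonic bases at the end of Hjv, with confidence bounds of 0.147 and 0.452 FPKM. That locus lay mostly outside the gene and runs into the stretch described next, so it was left out of the value and share given here. Both wild type libraries thus lay above knockout 2, and no test was made because knockout 1 has no value.

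Beyond the end of Hjv, knockout 2 differed from the other 3 libraries. The stretch from Hjv to the next annotated gene, an antisense transcript at Txnip, is 26.6 kb (kilobases) long and holds no annotated exon. Assembled loci covered 3.20% and 1.86% of it in the wild type libraries, 1.54% in knockout 1 and 95.3% in knockout 2. Up to the start of Txnip, knockout 2 had 8 loci of 0.275 to 0.713 FPKM, the first of which starts inside Hjv. The others had 1 locus each, at 0.362, 1.01 and 4.81 FPKM. The longest knockout 2 locus, 13883 bases at 0.457 FPKM, has an upper confidence bound of 9.9e+06 FPKM. Those of 1950 and 1884 bases have upper bounds of 305 and 213 FPKM, so these levels have no usable upper limit.

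Among the 710 stretches of 10 to 50 kb between genes on chromosome 3, this one was the most fully covered in knockout 2, and among 14942 such stretches of the genome it ranked 2. Knockout 2 had 23 stretches in the genome covered to at least 50% and 3 to at least 90%. Wild type 1 had 7 and 0 such stretches, wild type 2 had 4 and 0, and knockout 1 had 2 and 0. All but 1 of the 8 loci lay under 0.6 FPKM, a level at which knockout 1 had no locus outside coding exons on the chromosome, and the part that depth played in the gap between the libraries was not tested.

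**Figure D1:**
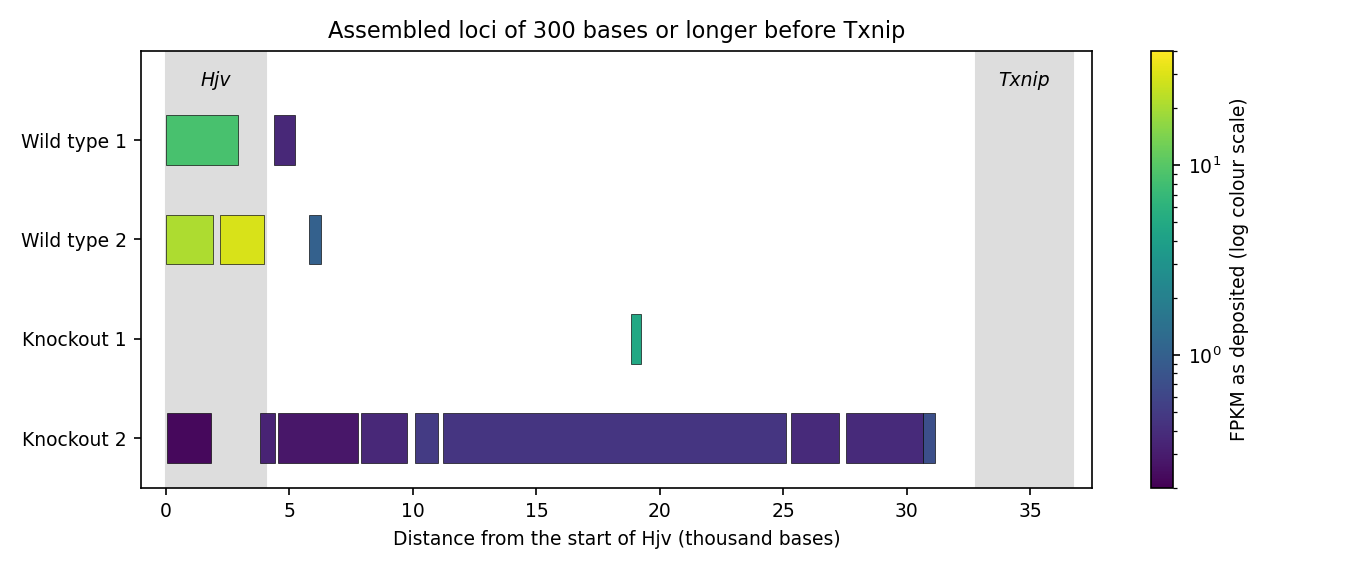
Loci of 300 bases or longer between the start of Hjv and the end of Txnip, 1 row per library, with the distance from the start of Hjv in kb on the x axis and color giving deposited FPKM on a log scale. Gray bands mark the genes, and Txnip loci are not drawn. Loci fill 89.8% of the stretch from the end of Hjv to the start of Txnip in knockout 2, against 1.42% to 2.96% in the other libraries.

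The nearest genes with a tested value on the left were Bola1, Sf3b4 and Otud7b. Bola1, which takes part in mitochondrial iron-sulfur cluster biology, measured 0.656 and 1.29 scaled FPKM (wild type) against 2.49 in knockout 1 and 17.7 in knockout 2. Scaled FPKM are deposited FPKM divided by a factor per library, and differences are given on the log2(scaled FPKM + 1) scale, knockout minus wild type. Each Bola1 value rests on 1 locus of 416 to 852 bases. Both knockout loci lay above their own upper confidence bounds, at 2.974 against 2.970 deposited FPKM in knockout 1 and 16.95 against 13.3 in knockout 2. Knockout was above wild type in each library for Bola1, but the knockout values lay far apart, and the log2 difference of 2.05 (SE 0.81) had an unadjusted p of 0.0523 by limma. Without knockout 2 the log2 difference was 0.84 (unadjusted p = 0.0180 by limma) and without knockout 1 it was 3.23, and with values as deposited it was 2.17 (unadjusted p = 0.0149).

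Sf3b4, a component of the spliceosome, measured 5.65 and 7.36 scaled FPKM (wild type) against 4.93 and 8.01 (knockout). Otud7b, a deubiquitinase, measured 3.31 and 2.88 (wild type) against 2.84 and 2.94 (knockout). Both genes overlapped between the genotypes, and both changed sign with the scaling, at 0.15 and 0.08 with values as deposited against -0.03 and -0.07.

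On the right the nearest tested gene was Txnip (96557957 to 96561883), an arrestin-like inhibitor of thioredoxin and of glucose uptake, which starts 28.7 kb beyond Hjv. It measured 44.9 and 65.4 scaled FPKM (wild type) against 30.5 and 26.0 (knockout). Both knockout libraries lay below both wild type libraries, with a log2 difference of -0.92 (SE 0.25, unadjusted p = 0.0149 and adjusted p = 0.410 by limma). Without wild type 2 the log2 difference was -0.66 and the unadjusted p 0.116, and with values as deposited they were -0.72 and 0.0542. The antisense gene Gm15441 shares 19.4% of the exonic bases of Txnip, and no strand information is given in the sources used here, so reads of the pair cannot be told apart.

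Lix1l measured 2.04 and 1.21 (wild type) against 2.09 and 0.962 (knockout), with overlapping groups and a sign that depended on the processing. Rbm8a, a core protein of the exon junction complex, measured 10.8 and 11.5 (wild type) against 14.2 and 14.9 (knockout). The Rbm8a groups did not overlap, and its log2 difference of 0.36 did not pass the test (unadjusted p = 0.0979 by limma). The 6 nearest tested genes therefore included 1 past an unadjusted p of 0.05 by limma, Txnip, beside 11.1% of all 7885 genes tested.

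Over the whole interval, 12 of the 59 tested genes, or 20.3%, had an unadjusted p under 0.05 by limma, against 11.1% of all 7885 genes tested and 11.2% of the 358 on the rest of chromosome 3. Of the 12, 9 were lower and 3 higher in knockout livers. Among all genes 5.28% were lower and 5.85% higher, and on the rest of chromosome 3 8.10% were lower and 3.07% higher, so lower calls outnumbered higher ones there too. Adjusted over all genes tested, 0 genes of the interval and 0 of all genes passed 0.05 by limma, and the smallest adjusted p in the interval was 0.244. With values as deposited the 9 genes past the unadjusted threshold were 4 lower and 5 higher, 15.3% of the interval against 12.8% of all genes. These are counts over genes, which are not replicates, and no test was made of the difference between the interval and the other genes.

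Counted without a model of variance, the groups did not overlap for 27 of the 59 genes, 10 with knockout above and 17 below. That is 45.8%, a share near the background of 46.1% of all genes tested (22.3% with knockout above and 23.8% below) and 44.4% on the rest of the chromosome. A difference of at least 2-fold was also reached by 6 genes, 10.2% against 6.80% of all genes (4.86% above and 1.94% below) and 6.15% on the rest of the chromosome. Vps72 and Bola1 were above in knockout, and S100a11, S100a10, Fmo5 and Hsd3b5 were below. In whole liver RNA, fewer cells of a type and less RNA per cell cannot be told apart for any of these genes.

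**Figure D2:**
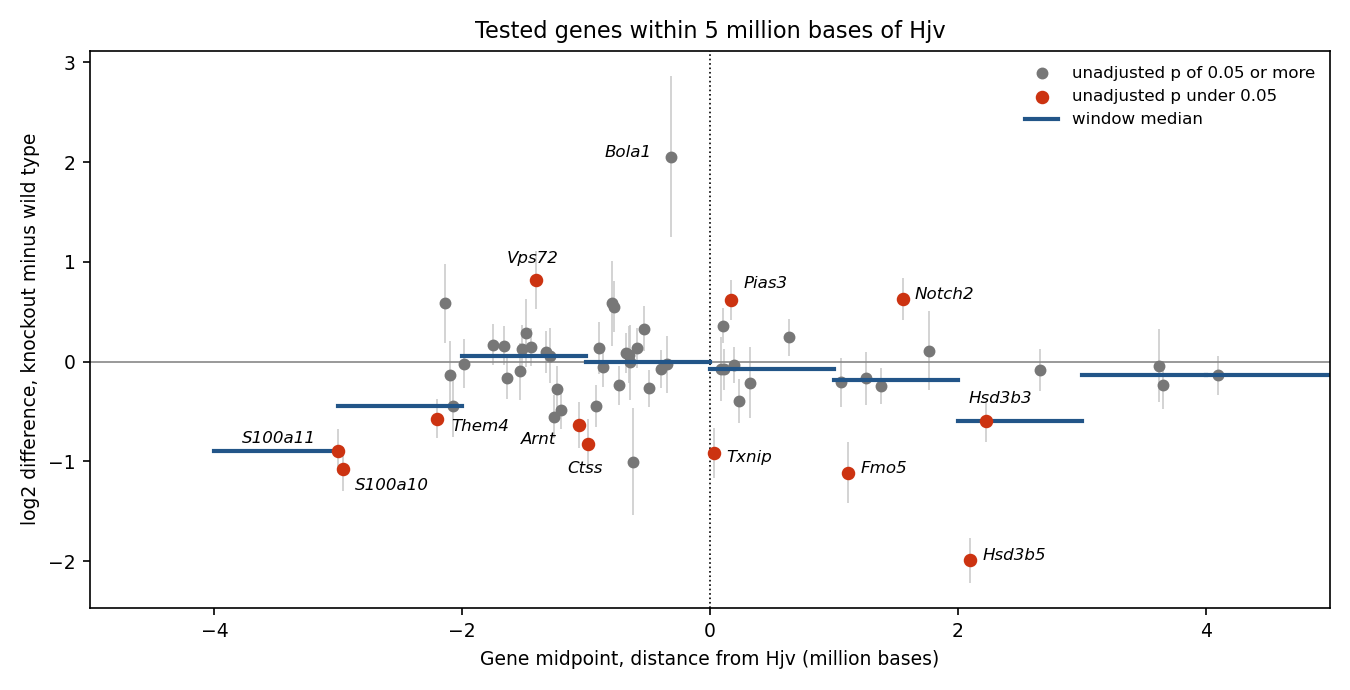
Log2 difference between genotypes (y axis, knockout minus wild type, with SE from limma) of the 59 tested genes against distance from Hjv in Mb (x axis). Red points have an unadjusted p under 0.05 and blue bars are medians of 1 Mb windows, including those with a single gene, and the 12 red points lie on both sides of Hjv, 9 of them below 0.

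The size of the differences did not change steadily with distance from Hjv. Across the 59 genes the absolute log2 difference and the distance had a Spearman correlation of 0.06, given as a description over genes that share the 4 libraries. The interval's median log2 difference was -0.07, beside -0.08 on the rest of the chromosome and 0.02 over all genes. The median absolute difference was 0.24, beside 0.23 and 0.25. Within a genotype, the median absolute difference between the 2 libraries was 0.20 in wild type and 0.32 in knockout. Those compare single libraries, while the genotype difference compares means of 2 libraries, which vary less. The values are thus unlike measures and are not ranked here.

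In windows of 1 Mb counted outward from the ends of Hjv, tested genes were concentrated in the middle. The windows directly left of Hjv held 17 and 15 tested genes with medians of -0.01 and 0.06, and those directly right held 9 and 6 with medians of -0.07 and -0.19. The windows 2 to 3 Mb from Hjv stood lower, at -0.44 over 5 genes on the left and -0.60 over 3 genes on the right. Elsewhere on the chromosome, 46 windows with at least 3 tested genes had medians of -0.40 to 0.44.

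The windows 2 to 3 Mb away thus had the lowest medians of all windows with at least 3 tested genes, and each rests on a few genes. Those on the left include S100a10, Them4, Tdrkh and Mrpl9, and those on the right are Hsd3b5, Hsd3b3 and Wars2. The right window also had the largest median absolute difference, 0.60, where the windows elsewhere on the chromosome reached 0.586. Windows 4 and 5 held 1 gene on the left, S100a11, and 3 on the right.

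**Figure D3:**
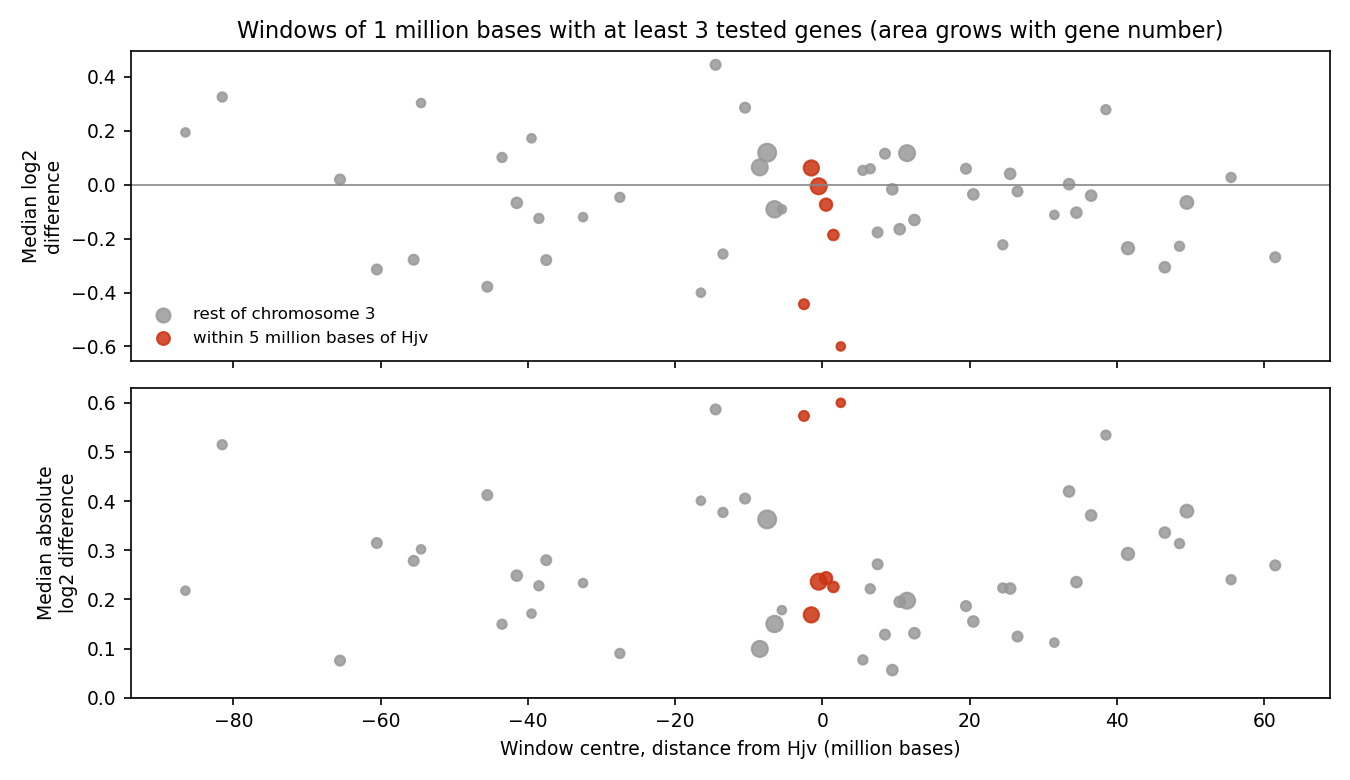
Median log2 difference (upper panel, knockout minus wild type) and median absolute log2 difference (lower panel) of 1 Mb windows along chromosome 3 with at least 3 tested genes, by distance of the window's center from Hjv in Mb. The 6 windows of the interval are red, the 46 others gray, point area grows with the number of genes, and 2 red windows lie below the gray range of -0.40 to 0.44 in the upper panel.

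**Figure D4:**
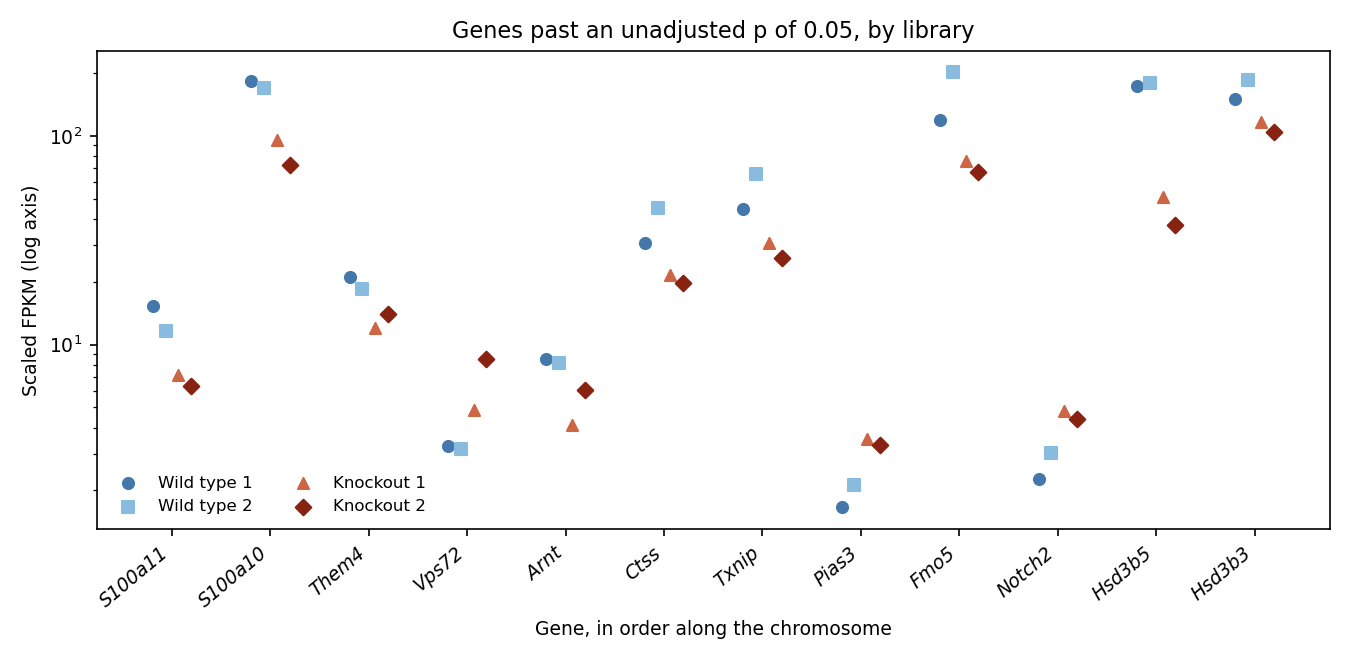
Scaled FPKM (log axis) in each library of the 12 tested genes with an unadjusted p under 0.05, in order along the chromosome. In each gene both knockout libraries (triangles and diamonds) lie on 1 side of both wild type libraries (circles and squares), with knockout above for Vps72, Pias3 and Notch2.

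The S100 genes of the interval are 2 and both were lower in the knockout libraries. S100a10 (93555080 to 93564643), the partner of annexin A2 at membranes, measured 184 and 169 scaled FPKM (wild type) against 95.2 and 72.5 (knockout). S100a11 (93520488 to 93526287), another calcium-binding protein of this family, measured 15.4 and 11.6 (wild type) against 7.13 and 6.31 (knockout). Neither gene overlapped between the genotypes.

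S100a10 had a log2 difference of -1.08 (SE 0.22, unadjusted p = 0.00455 and adjusted p = 0.383 by limma) and S100a11 of -0.90 (SE 0.22, unadjusted p = 0.00978 and adjusted p = 0.395). S100a10 stayed under an unadjusted p of 0.05 in each of the 18 alternatives run, and S100a11 in 17 of 18, the exception being the fit without wild type 1 (unadjusted p = 0.0837 by limma). They lie 2.96 and 3.00 Mb from Hjv and next to each other, so they are 2 genes at 1 place rather than separate places.

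The gene with the smallest p of the interval was in the Hsd3b cluster. Hsd3b5 (98618634 to 98630252) measured 174 and 178 scaled FPKM (wild type) against 51.0 and 37.3 (knockout). The wild type libraries lay close together and a ratio of 3.99 above the knockout mean, with a log2 difference of -1.99 (SE 0.22, unadjusted p = 0.000322 and adjusted p = 0.244 by limma). Over the 18 alternatives its log2 difference ranged from -2.20 to -1.77, and its largest unadjusted p was 0.00437. Hsd3b5 shares none of its 50-base words with Hsd3b2 or Hsd3b3 and 18.2% of them with Hsd3b4, which had no usable locus.

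Hsd3b3 (98741523 to 98763127), about 0.1 Mb from Hsd3b5, measured 151 and 185 scaled FPKM (wild type) against 116 and 104 (knockout). The groups did not overlap, and the log2 difference was -0.60 (SE 0.21, unadjusted p = 0.0342 and adjusted p = 0.434 by limma). The call was lost without wild type 1 (unadjusted p = 0.0967 by limma) and without wild type 2 (unadjusted p = 0.262). With values as deposited the log2 difference was -0.39 (unadjusted p = 0.200).

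Hsd3b2 (chromosome 3, 98709255 onward), between those genes, lay the other way. It measured 19.7 and 16.7 scaled FPKM (wild type) against 48.9 in knockout 1 and 83.9 in knockout 2. Both knockout libraries were above both wild type libraries, but the knockout 2 locus spanned 32.4% of the transcript, under the minimum of 50%, so the gene was not among the 59. With no minimum on the span, its log2 difference was 1.75 (SE 0.34, unadjusted p = 0.00365 and adjusted p = 0.393 by limma).

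The cluster's other members, Hsd3b1, Hsd3b4 and Hsd3b6, had no usable locus in any library. Of the 6 genes in the family list, 3 had values, 2 were tested and both of these were lower in knockout, beside 5.28% of all genes. With values as deposited or quantile normalization 1 of the 2, Hsd3b5, kept an unadjusted p under 0.05. Hsd3b2 and its neighbor Hsd3b3, with the upstream sequences printed above, thus differed between genotypes in opposite directions.

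**Figure D5:**
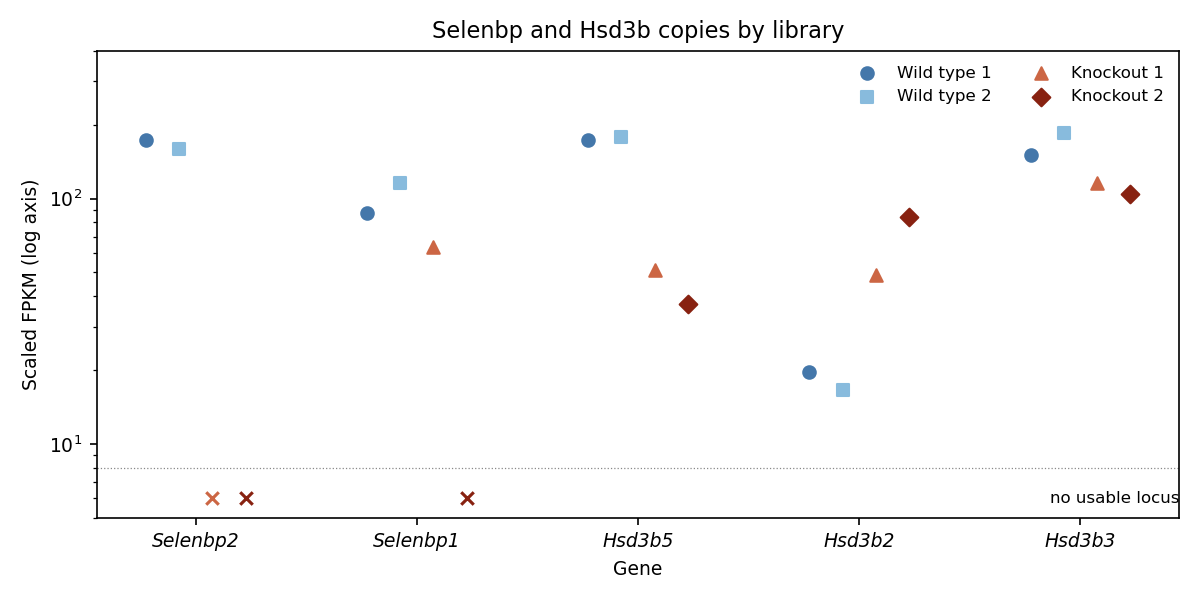
Scaled FPKM (log axis) of the Selenbp and Hsd3b genes with a value in any library, 1 point per library. Crosses below the dotted line mark libraries with no usable locus, which is not a value of 0, and Hsd3b2 is the 1 gene of the 5 whose knockout libraries lie above its wild type libraries.

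The selenium-binding protein genes differed in whether they were assembled at all. Selenbp2 had loci over its whole transcript in both wild type libraries, at 162 and 146 deposited FPKM, and no usable locus in either knockout library. Knockout 1 had a piece of 196 bases on an exon, whose deposited 25.3 FPKM lies above its own confidence bounds of 1.03 and 3.26. Knockout 2 had a piece of 351 bases in an intron at 0.897 FPKM.

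Selenbp1, with its nearly identical upstream sequence, was assembled at 81.9 and 106 deposited FPKM in wild type and 75.6 in knockout 1, and it had no locus in knockout 2. Wild type thus had both genes, knockout 1 had Selenbp1 and knockout 2 had neither. Of 450 genes with at least 100 deposited FPKM over at least 50% of the transcript in both wild type libraries, 3 had no usable locus in either knockout library, and Selenbp2 was 1 of them. Of 421 genes at that level in both knockout libraries, 2 had none in either wild type library, and 0 of those lay in the interval. Since Alb has no locus either, a missing locus gives no upper limit on the level, and no fold or test is given for either Selenbp gene.

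The list of liver metabolism genes held 15 members, all with a value in at least 1 library and 9 of them tested. Of the 9, 3 were lower with an unadjusted p under 0.05 and 0 were higher, beside 5.28% and 5.85% of all genes. The list's median log2 difference was -0.48, beside 0.02 over all genes. With values as deposited 1 was lower, the median was -0.28 and the median of all genes 0.19. Leaving out 1 library gave medians of -0.68 (without knockout 2) to -0.23 (without knockout 1), and the number called moved with the library left out. The 3 were Txnip, described above, Fmo5 and Them4.

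Fmo5 (97628804 to 97655282), a flavin monooxygenase of liver, measured 119 and 201 scaled FPKM (wild type) against 75.4 and 67.1 (knockout). The wild type libraries lay further apart than the knockout libraries but above both, and the log2 difference was -1.11 (SE 0.30, unadjusted p = 0.0146 and adjusted p = 0.410 by limma). Without wild type 2 it was -0.74 with an unadjusted p of 0.0938. Them4 (94310089 to 94332540), an acyl-CoA thioesterase, measured 21.2 and 18.4 (wild type) against 12.0 and 13.9 (knockout), with no overlap. Its log2 difference was -0.57 (SE 0.19, unadjusted p = 0.0328 and adjusted p = 0.433 by limma), and the call was lost without wild type 1 (unadjusted p = 0.209), without wild type 2 (unadjusted p = 0.0997) and without knockout 1 (unadjusted p = 0.0667). It was also lost with values as deposited (log2 difference -0.38, unadjusted p = 0.159 by limma) and with the highest locus (unadjusted p = 0.0524).

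Among the other metabolic genes, Cers2, which makes very long chain ceramides, measured 201 and 192 scaled FPKM (wild type) against 148 and 132 (knockout). Its groups did not overlap, and the log2 difference of -0.48 had an unadjusted p of 0.0504 by limma. Car14, a membrane carbonic anhydrase, measured 22.1 and 18.2 (wild type) against 5.08 in knockout 1 and 17.0 in knockout 2. Only knockout 1 was far from the others. A gene on the opposite strand shares 17.5% of the exonic bases of Car14. A locus on part of Car14 could not be assigned to 1 gene and was left out in knockout 1 and in wild type 1, the lowest and the highest library. Its log2 difference of -1.01 did not pass the test (unadjusted p = 0.120 by limma).

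Pdzk1 is a scaffold for membrane transporters, and opposite-strand genes share 41.7% of its exonic bases, where reads cannot be told apart. It measured 24.3 and 28.6 (wild type) against 16.0 and 31.9 (knockout), and the knockout libraries lay on either side of wild type. Its log2 difference of -0.21 became -0.69 (unadjusted p = 0.0158 by limma) without knockout 2. Acp6, a lysophosphatidic acid phosphatase, measured 16.1 and 15.03 (wild type) against 19.8 and 17.5 (knockout) (log2 difference 0.24), with no overlap between the genotypes. Prkab2, a subunit of AMP-activated protein kinase, measured 0.766 and 0.943 (wild type) against 1.43 and 0.599 (knockout) and was not tested, as its span was too short. Phgdh and Hao2 had a value in knockout 2 alone, at 0.422 and 0.276 scaled FPKM, and Them5 in wild type 2 (1.16) and knockout 2 (0.320).

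Arnt, Notch2, Pias3 and Vps72 were also past the unadjusted threshold, and the last 2 belong to the list of RNA and protein handling. Arnt (95434388 to 95497240), the dimer partner of hypoxia-inducible factors and of the aryl hydrocarbon receptor, measured 8.58 and 8.19 scaled FPKM (wild type) against 4.14 and 6.07 (knockout). Notch2 (98013527 to 98150361), a Notch receptor, measured 2.28 and 3.02 (wild type) against 4.83 and 4.38 (knockout). Arnt was the lower and Notch2 the higher in knockout, each with no overlap.

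Pias3 (96696384 to 96706070), a SUMO ligase that inhibits STAT3, measured 1.66 and 2.12 scaled FPKM (wild type) against 3.52 and 3.32 (knockout). Vps72 (95111022 to 95123051), a subunit of chromatin complexes that handle histone variant H2A.Z, measured 3.27 and 3.16 (wild type) against 4.84 and 8.52 (knockout). Both were above wild type in both knockout libraries, at low levels.

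The log2 differences by limma were -0.64 for Arnt (SE 0.23, unadjusted p = 0.0415), 0.63 for Notch2 (SE 0.21, unadjusted p = 0.0314), 0.61 for Pias3 (SE 0.20, unadjusted p = 0.0287) and 0.82 for Vps72 (SE 0.29, unadjusted p = 0.0369), with adjusted p from 0.424 to 0.438. Each of the 4 calls was lost when either wild type library was left out, with unadjusted p of 0.0747 to 0.218. Without knockout 1 the calls of Arnt (log2 difference -0.40, unadjusted p = 0.104 by limma) and Notch2 (unadjusted p = 0.0561) were also lost, and without knockout 2 that of Vps72 (log2 difference 0.47, unadjusted p = 0.0751). With the highest locus of each gene in place of the average, Notch2 had a log2 difference of 0.17 (unadjusted p = 0.587 by limma) and the call of Arnt was lost (unadjusted p = 0.0893). Arnt was lost with values as deposited as well (unadjusted p = 0.0980 by limma), and with no minimum on the span (unadjusted p = 0.0514). Quantile normalization ended the calls of Notch2 (unadjusted p = 0.0545 by limma) and Pias3 (unadjusted p = 0.0541).

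Setdb1, a histone H3 lysine methyltransferase, is named after its values were seen. With no minimum on the span it measured 4.66 and 4.11 scaled FPKM (wild type) against 1.64 and 1.05 (knockout). The groups did not overlap, with a log2 difference of -1.21 (SE 0.24, unadjusted p = 0.00420 and adjusted p = 0.420 by limma), but its loci were pieces in 3 of the libraries.

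Ctss (95526786 to 95556403), the lysosomal protease cathepsin S of macrophages and other antigen-presenting cells, measured 30.6 and 45.2 scaled FPKM (wild type) against 21.5 and 19.6 (knockout). Both knockout libraries were below, with a log2 difference of -0.83 (SE 0.25, unadjusted p = 0.0209 and adjusted p = 0.413 by limma), and without wild type 2 the unadjusted p was 0.155. With the highest locus its log2 difference was -0.43 (unadjusted p = 0.273 by limma), and with values as deposited -0.63 (unadjusted p = 0.0744). It is 1 of 8 myeloid markers, whose summed level was 134 and 172 (wild type) against 92.1 and 120 (knockout). Of the 6 tested, 2 had an unadjusted p under 0.05 by limma, both lower, beside 5.28% of all genes. They were Ctss itself and the Kupffer cell receptor Vsig4, at 22.4 and 24.7 (wild type) against 13.1 and 14.3 (knockout). The other Kupffer cell marker Clec4f measured 31.7 and 37.9 against 22.3 and 30.4, and Marco had no value in knockout 1. The groups did not overlap for 4 of the 6, all with knockout below, beside 23.8% of all genes. Cd5l (29.9 and 39.8 against 24.6 and 35.3) and Csf1r (9.64 and 12.3 against 6.33 and 12.0) overlapped. With values as deposited 0 of the 6 were past the threshold by limma. Leaving out 1 library gave median log2 differences of -0.73 (without knockout 2) to -0.25 (without knockout 1), beside -0.49 with all libraries. The 5 endothelial markers summed to 43.3 and 54.9 (wild type) against 50.3 and 55.4 (knockout), and 0 of them passed. The part of cell composition in the Ctss difference was not tested.

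Genes of RNA and protein handling, which fill much of the left side, mostly showed small differences. Of 19 in the list, all had a value in at least 1 library, and 16 were tested, with 2 higher (Vps72 and Pias3) and 0 lower at an unadjusted p under 0.05, beside 5.85% and 5.28% of all genes. The median log2 difference of the 16 was -0.03, and 0.15 with values as deposited, where the median of all genes was 0.19. Leaving out 1 library gave medians of -0.05 (without knockout 2) to 0.10 (without knockout 1), and the number called moved with the library left out. The proteasome subunit Psmb4 measured 98.6 and 116 scaled FPKM (wild type) against 103 and 87.6 (knockout). The mitochondrial ribosomal protein gene Mrps21 measured 47.9 and 66.3 against 48.5 and 72.1. For both genes the replicates of either genotype lay further apart than the genotype means.

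The mitochondrial threonyl-tRNA synthetase gene Tars2 measured 5.11 and 4.87 scaled FPKM (wild type) against 6.27 and 9.61 (knockout), with no overlap and an unadjusted p of 0.0800 by limma. Sec22b, a SNARE protein of transport between the endoplasmic reticulum and the Golgi, measured 17.9 and 16.8 (wild type) against 15.2 and 13.8 (knockout), a log2 difference of -0.24 at an unadjusted p of 0.233. Psmd4, of the proteasome's regulatory particle, measured 26.9 and 26.3 (wild type) against 23.4 in knockout 1 and 45.4 in knockout 2.

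The remaining lists were hardly assembled. Of 10 genes of histone cluster 2, 5 had a value and 0 were tested, with Hist2h3c1 the highest at 5.58 and 6.81 scaled FPKM in wild type, 4.84 in knockout 1 and no value in knockout 2. Of 45 genes of epidermal differentiation, which belong to keratinocytes, 2 had a value, Tchh and Lor, both in knockout libraries and at 2.20 scaled FPKM or less. The outermost left window, with 20 coding genes, held 1 and 0 loci for wild type and 0 and 2 for knockout.

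Loci outside coding genes differed in number between libraries. Of loci in introns, between genes or on other annotated genes, there were 55 and 17 (wild type) against 27 and 78 (knockout), and 0 were found in all 4 at a reciprocal overlap of 50%. Loci covered 26.7 and 9.12 kb for wild type and 7.10 and 74.6 kb for knockout outside annotated exons. Of the chromosome's loci in introns or between genes alone, the interval held 16.6% and 10.9% for wild type against 13.3% and 17.5% for knockout, and the genotypes overlapped.

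Base composition moved with the differences between libraries. Across the 59 tested genes, the log2 difference of knockout 2 from knockout 1 followed the GC content of the transcript with a Spearman correlation of 0.43, and 0.30 over the 417 tested genes of the chromosome. The difference between genotypes also had a correlation of 0.43 with GC content in the interval. Bola1 and Vps72, with 56.6% and 57.1% GC, are among the genes for which knockout 2 lay above knockout 1, by log2 values of 2.43 and 0.70. These correlations are descriptions over genes of the same libraries, and the part of GC content in any single difference was not tested.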

How the data were processed

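Libraries were made from whole liver RNA with a TruSeq kit and sequenced on a HiSeq 2000, per the labels' protocols. The tools FastQC, TopHat and Cufflinks, and the build mm9, are named by the submitters' processing notes, with no version. The authors deposited FPKM and its confidence bounds for loci that Cufflinks assembled in 1 library at a time, per the file headers, and no gene names. Of interval loci over 2000 bases, 14.2% to 32.5% started or ended within 20 bases of a GENCODE M21 (GRCm38) gene end, and 0% to 0.943% did after a shift of 50 kb, so GRCm38 was used. Whether starts count from 0 or 1 is not given in the sources used here.

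Loci were assigned to 21667 coding genes by position. A locus needed at least 50% of its bases in the gene, could have no second gene with over 25% as many exonic bases, and was left out if its FPKM exceeded 3 times the midpoint of its bounds. Gene values are locus FPKM averaged with exonic bases as weights. A gene was tested if its loci covered at least 50% of a coding transcript in all 4 libraries and at least 2 libraries reached 1 FPKM. Values were divided by median-of-ratios factors of 0.936, 0.916, 1.20 and 0.956. The genotypes were compared with limma 3.58.1 (R 4.3.3), two-sided, on log2(scaled FPKM + 1), with a trend of variance on mean (2 residual and 2.94 prior degrees of freedom). Adjusted p-values follow Benjamini and Hochberg, over the 7885 genes tested. An exact permutation test of 1 gene cannot go below 0.3333. Shared words of transcripts and aligned promoters were computed in Python 3.11.15 with Biopython 1.88.

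The members, lists, thresholds and tests were chosen with earlier results of these data known. Named genes are Hjv, interval genes with an unadjusted p under 0.05, those with groups apart and a 2-fold difference, the 3 nearest tested genes on each side, the Hsd3b genes and the liver metabolism list. Some genes that enter the counts are not reported here by name. Of 5 stellate markers 4 were tested, with 1 higher and 0 lower at an unadjusted p under 0.05 by limma. Of 5 lymphocyte markers 1 was tested, with 0 past that threshold, and of 4 tested hepatocyte markers 1 was higher and 2 lower. Over all genes 5.85% were higher and 5.28% lower. A promoter entry was found for 49 of the 59 tested genes, and the sequences printed end before the first annotated exon. The alternatives tried are given at the end.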

Additional observations from a re-analysis of the deposited data

Results flagged for a closer look

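Loci covered 95.3% of the stretch between Hjv and the next gene in knockout 2, in sequence that no gene comparison uses, against 3.20% and 1.86% in the wild type libraries and 1.54% in knockout 1. The covered share is above that of the wild type libraries in 1 of the 2 knockout libraries. The FPKM of assembled loci overlapped, at 0.275 to 0.713 in knockout 2 up to Txnip and 0.362 and 1.01 in wild type. The wild type values come from 1 piece each, of 851 and 493 bases, and the longest knockout 2 locus has an upper confidence bound of 9.9e+06 FPKM. The level of the whole stretch therefore cannot be compared.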

How the results depend on the processing

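The called genes of the interval, 3 higher and 9 lower, were 5 higher and 4 lower with values as deposited, 1 higher with quantile normalization, 0 higher with a filter at 5 FPKM and 4 lower within 2 Mb of Hjv. Genes with groups apart and a 2-fold difference, 2 above and 4 below, were 4 above and 1 below with values as deposited, 0 above with the filter at 5 FPKM, 1 above with quantile normalization, 1 above with loci of 1000 bases or longer, and 1 above and 2 below with a span of at least 75%. The median log2 difference of -0.075 was 0.0835 with values as deposited, where all genes shifted to a median of 0.19, -0.167 with the filter at 5 FPKM, -0.111 with quantile normalization, -0.021 with the highest locus and -0.0303 within 2 Mb. The median absolute difference of 0.236 was 0.278 with the filter and with values as deposited, and 0.208 with a span of at least 75%. Leaving out each library in turn gave 0 to 8 genes higher, 3 to 12 lower, 1 to 5 above and 3 to 5 below by 2-fold, medians of -0.101 to -0.0644 and absolute medians of 0.277 to 0.376. The most genes higher came without knockout 1 (8) and the fewest lower without wild type 2 (3). In these fits the single library left in a genotype borrows its spread from the other genotype, so their adjusted p-values are not given.

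With the replicate number as a block, 2 genes were higher and 6 lower, 13.6% against 10.8% of all genes. Same-numbered libraries deviated together by a correlation of 0.0875 over all genes. With 2 libraries per genotype this cannot settle whether the numbers pair the libraries. The share of genes called was higher in the interval than over all genes in each of the 18 alternatives. The interval's share of loci, 1.36 percentage points higher in knockout, kept that direction with loci of any length (1.53), of 1000 bases or longer (0.608) and without each library (0.343 to 2.37), alternatives chosen after the data were seen. Of 361 values of 21 named genes, 10 reversed. They were Lix1l (0.065), Otud7b (0.0835) and Sf3b4 (0.148) with values as deposited, and Lix1l (0.206) and Otud7b (0.0237) with the highest locus. Without 1 library each, the ranges were -0.389 to 0.251 for Lix1l, -0.332 to 0.275 for Sf3b4 and -0.691 to 0.27 for Pdzk1. None of these 4 genes was past the threshold with the settings of the report, Pdzk1 passed it without knockout 2, and the cause was not tested. Of the other values, 299 kept direction and side of the threshold, 38 lost and 14 gained the call.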
